A study of Zea mays subsp. mays with 2 samples.

Results

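Mid-length loci that lie in gene-sparse stretches of the maize genome were examined in the endosperm of the dek2 mutant and of wild type (WT). A locus here is a row of the deposited expression tables, identified by chromosome, start and end. A row belonged to the set when it lay on chromosomes 1 to 10, when its 1 Mb bin held 10 or fewer distinct coordinates, when its span (end minus start, introns included) was over 1500 and under 20000 bp, and when its coordinate occurred once. The rule used coordinates only, and 1735 of 45157 rows met it. They were set beside 2934 rows of the same spans in bins with 40 or more coordinates, called gene-dense here.

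The series holds 1 sample of the dek2 mutant and 1 sample of wild type, each of endosperm at 15 days after pollination, with kernel given as the source. Endosperm is the tissue of the kernel that stores starch and protein. The design text speaks of triplicates, but each genotype has 1 table of FPKM (fragments scaled to transcript length and to the mapped total), and no source at hand says whether a table stands for a library, a pool or a mean, nor which strain and dek2 allele were used. No spread between replicates could be computed, and every difference below is between 2 deposited tables and carries no p-value.

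Maize genes are known to crowd towards the ends of the chromosome arms, whereas the long stretches around the centromeres are filled with retrotransposons, recombine little and hold few genes. Genes in such stretches often stand alone between blocks of repeats. The dek mutants take their name from defective kernels, and the Dek2 protein is described in the literature as a pentatricopeptide repeat protein, a class of RNA-binding proteins of organelles, needed to splice a transcript of the mitochondria. The tables hold no gene name and no statement of the build, so each locus is given by position and none is named as a gene. Tissue markers and the dek2 transcript were for the same reason not checked.

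The gene-sparse loci lay in the inner parts of the chromosomes. Of the 2063 bins of 1 Mb, 449 (21.8%) held 10 or fewer coordinates and 104 held 40 or more, with a median of 17 coordinates and a highest number of 71. The loci occupied 439 of the gene-sparse bins, with a median of 4 and at most 10 loci in a bin, which is the limit of the rule. Their median distance to the nearer chromosome end was 36.1% of the last coordinate listed for that chromosome, against 2.73% for the gene-dense loci. Only 55 of the 1735 loci (3.17%) lay within 10% of an end, against 2715 of the 2934 gene-dense loci (92.5%). Chromosome 4 held the most of them with 255, and chromosome 10 the fewest with 113.

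**Figure D1:**
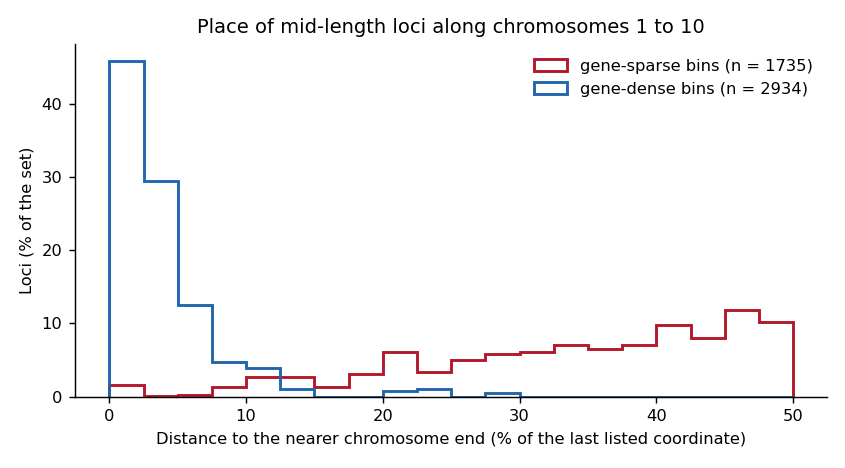
Distance of each mid-length locus to the nearer chromosome end, as a percent of the last coordinate listed for its chromosome (x axis), against the percent of the set (y axis), for loci of gene-sparse bins (red, n = 1735) and of gene-dense bins (blue, n = 2934). The gene-sparse loci are spread over the inner chromosome with a median of 36.1%, and the gene-dense loci crowd at the ends with a median of 2.73%.

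The gene-sparse loci stood farther from other coordinates than the gene-dense loci and had like spans. The rule bears on both traits, since it limits the coordinates of a bin and sets the same span limits for both sets. The distance to the nearest other listed coordinate had a median of 34.1 kb, against 1.94 kb among the gene-dense loci, and reached 547 kb. None of the 1735 loci overlapped another listed coordinate, and no gene-dense locus did so either. Only 10 of the 39952 coordinates checked overlapped another, so the absence of overlap does not set the gene-sparse loci apart. The median span was 3574 bp, against 3598.5 bp for the gene-dense loci, so that spans hardly differed between the sets. The loci made up 48.0% of the 3614 rows in the gene-sparse bins. The other rows there were 1154 rows of at most 1500 bp, 224 rows of 20000 bp or more and 501 mid-length rows that shared a coordinate. The gene-sparse loci held 57.7% of the FPKM of the gene-sparse bins in dek2 and 52.6% in WT.

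About 1 in 2 gene-sparse loci reached 1 FPKM in either genotype, fewer than among the gene-dense loci. For this comparison each dek2 value was divided by 1.50, the median of dek2 over WT across 22250 rows that reached 1 FPKM in each table (0.59 on the log2 scale). After this scaling, 867 loci (50.0%) were at 1 FPKM or more in dek2, and 873 (50.3%) were in WT. The corresponding shares of the gene-dense loci were 65.4% in dek2 and 65.6% in WT. Over mid-length loci of all bins they were 59.1% in scaled dek2 and 58.8% in WT. Over all rows, which include other spans, they were 53.9% in scaled dek2 and 53.7% in WT. On the deposited values, dek2 reached 1 FPKM at 54.4% of the gene-sparse loci and at 69.4% of the gene-dense loci. Levels and sums of dek2 in FPKM are as deposited here and below unless called scaled. The median level over all gene-sparse loci was 0.994 FPKM in scaled dek2 and 1.03 FPKM in WT, and over all gene-dense loci it was 3.14 FPKM in scaled dek2 and 3.04 FPKM in WT.

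The share of detected loci followed the density of the bin step by step. In bins with 1 to 5 coordinates, 43.4% of 221 loci were at 1 FPKM or more in scaled dek2 and 47.1% were in WT. In bins with 6 to 10 coordinates, the shares were 50.9% in scaled dek2 and 50.8% in WT over 1514 loci. The share grew through bins with 11 to 20 coordinates (55.9% in dek2, 55.3% in WT), 21 to 30 (59.9% in dek2, 60.0% in WT) and 31 to 39 (62.8% in dek2, 61.7% in WT). No step stood at the limit of the rule. Among 495 loci in bins with exactly 10 coordinates, 55.8% were at 1 FPKM or more in scaled dek2 and 54.3% in WT, and among 454 mid-length loci in bins with 11 coordinates these shares were 56.6% in scaled dek2 and 55.3% in WT.

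**Figure D2:**
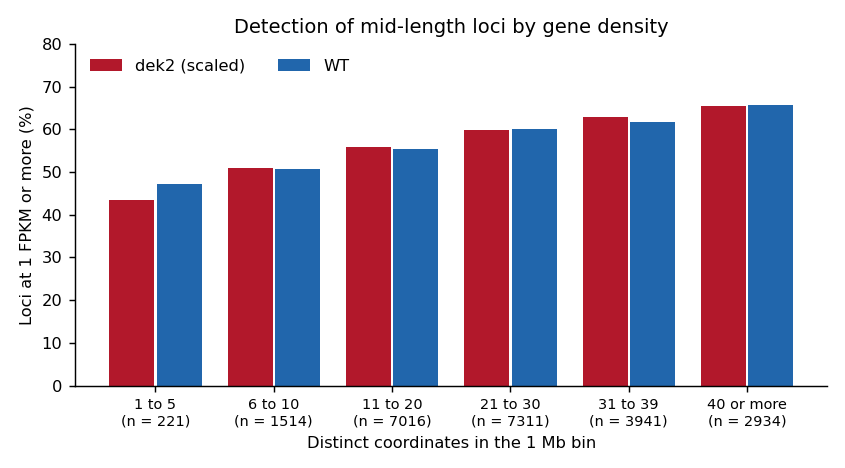
Percent of mid-length loci at 1 FPKM or more (y axis) by the number of distinct coordinates in their 1 Mb bin (x axis), for scaled dek2 (red) and WT (blue), with the number of loci under each pair of bars. Both genotypes climb from the sparsest bins (43.4% in dek2, 47.1% in WT) to the densest (65.4% in dek2, 65.6% in WT).

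The difference in detection was present within classes of like span and was smallest among the longest loci. At spans of up to 3000 bp, 36.8% of the gene-sparse loci were at 1 FPKM or more in scaled dek2 and 36.2% were in WT, against 53.6% in scaled dek2 and 52.5% in WT among the gene-dense loci. At spans above that and up to 6000 bp, the gene-sparse shares were 54.0% in scaled dek2 and 54.6% in WT, against gene-dense shares of 71.1% in scaled dek2 and 72.4% in WT. Up to 10000 bp they were 61.3% in scaled dek2 and 62.1% in WT, against 76.1% in scaled dek2 and 77.4% in WT among the gene-dense loci. Over 10000 bp they were 71.8% in scaled dek2 and 74.1% in WT, against 77.4% in scaled dek2 and 76.3% in WT among the gene-dense loci. The gene-sparse share at 1 FPKM was thus below the gene-dense share in all 4 classes and in both genotypes. The longest class held 170 gene-sparse and 177 gene-dense loci, and its order turned at 10 FPKM or more. At that level its gene-sparse shares were 38.8% in scaled dek2 and 37.1% in WT, against gene-dense shares of 35.0% and 35.6%. In the shorter classes the gene-sparse share was lower at that level too. Whether transcript length or the number of exons differs between the sets was not tested.

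A value was missing more often in WT than in dek2. The placeholder 1e-05, taken as no value, stood at 129 gene-sparse loci in dek2 (7.44%) and at 237 in WT (13.7%), and at 0 loci in both. Over all 45157 rows it likewise stood at 0 in both, so this 0 belongs to the tables as a whole. Coordinates without a value in both, if there were any, enter neither the detection shares nor the bins. Among the gene-dense loci, no value was given for 4.81% in dek2 and 6.95% in WT. Over all rows of the tables these shares were 8.17% in dek2 and 13.5% in WT. Where 1 genotype had no value, the other was usually near 0, with a median of 0.0745 FPKM in dek2 at loci without a WT value and of 0.0835 FPKM in WT at loci without a dek2 value.

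Such loci reached 1 FPKM on the deposited values in 11 cases, and none reached 10 FPKM. The dek2 values were not scaled here, and scaling would lower the dek2 numbers. Of these, 7 had a value in dek2 only, the highest at 4.70 FPKM on chromosome 5, and 4 had a value in WT only, the highest at 4.54 FPKM on chromosome 1. Among mid-length loci of all bins, 112 of 2155 loci without a WT value reached 1 FPKM in deposited dek2, and 10 reached 10 FPKM. Of 1358 without a dek2 value, 51 reached 1 FPKM in WT, and 2 reached 10 FPKM. Beside these small shares, 7 of 237 and 4 of 129 gene-sparse loci reached 1 FPKM, and 0 of 237 and 0 of 129 reached 10 FPKM. The numbers are therefore not read as particular to the gene-sparse loci. The number of fragments behind these values is unknown, so a missing value is not read as an absent transcript.

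The gene-sparse loci, 1735 of the 45157 rows, held a small part of the summed FPKM. Their sum was 28331 FPKM in dek2, or 2.64% of its total, and 17812 FPKM in WT, or 1.56%. FPKM is scaled to transcript length, so these are not shares of RNA mass. The most abundant row had 113227 of 1139649 FPKM in WT and 27440 of 1073588 FPKM in dek2, and such rows weigh on both shares. In such a tissue sample, fewer cells with a transcript and less of it per cell cannot be told apart. No gene-sparse locus was among the 100 most abundant rows of either table. Of the 2934 gene-dense loci, 3 were among them in dek2 and 4 in WT, so the 0 of 1735 lies near these small shares. The highest ranked 189th in dek2 and 113th in WT. Among the 1000 most abundant of the 45157 rows were 32 gene-sparse loci (1.84% of the set) in dek2 and 24 (1.38%) in WT. The gene-dense loci among them were 76 (2.59%) in dek2 and 68 (2.32%) in WT.

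The summed level was close between the genotypes after scaling. The scaled dek2 sum was 1.06 times the WT sum, and 1.03 times without the locus of chromosome 10 described below. For the gene-dense loci it was 0.822 times, and 1.08 times without a single locus of chromosome 4 that had 33.6 FPKM in dek2 and 13702 FPKM in WT. No gene-sparse locus was lowered from such a level, since the highest had 840 FPKM in WT.

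Most counted gene-sparse loci differed by less than 2-fold between dek2 and WT. The change of a locus was log2((scaled dek2 + 1)/(WT + 1)), with a pseudocount of 1 FPKM that understates the change of low loci, and a locus was counted when it reached 1 FPKM in either table as deposited. Of the 996 counted loci, 96 (9.64%) had a level in dek2 at least 2-fold above that in WT, 78 (7.83%) had one at least 2-fold below it, and 822 (82.5%) differed by less. With a pseudocount of 0.1 FPKM, 156 were higher and 138 lower. These are counts by a rule of size and not by a test. Over all 28476 counted rows of the tables the shares were 13.2% higher and 12.0% lower, but these rows include very short loci and loci with several gene models. Over the 15184 counted mid-length loci of all bins they were 10.5% higher and 8.22% lower, and over the gene-dense loci 9.95% higher and 7.97% lower. The gene-sparse shares thus lay near the mid-length background.

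The split between both directions rests on the scaling. Of the gene-sparse loci that differed at least 2-fold, 55.2% were higher in dek2. Without scaling this share was 89.7%, since 271 were then higher and 31 lower. It was 52.4% when the tables were brought to equal sums after their 100 most abundant rows had been left out. For the gene-dense loci the corresponding shares were 55.5%, 87.7% and 51.2%.

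The spread of the changes was alike in both sets. The median log2 ratio was 0.047 for the gene-sparse loci and 0.067 for the gene-dense loci, beside 0.074 over all counted rows. The middle 50% lay between -0.48 and 0.55 in gene-sparse bins and between -0.44 and 0.57 in gene-dense bins. A difference of at least 8-fold was found at 3 gene-sparse loci in each direction, 0.301% of those counted, beside 0.382% higher and 0.369% lower among mid-length loci of all bins and 1.18% higher and 1.19% lower over all rows. Over loci with 1 FPKM in a table and a value in both, the rank correlation between dek2 and WT levels was 0.870 for 985 gene-sparse loci and 0.882 for 2101 gene-dense loci. The loci of each set share the same pair of tables, and the correlations are descriptions.

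**Figure D3:**
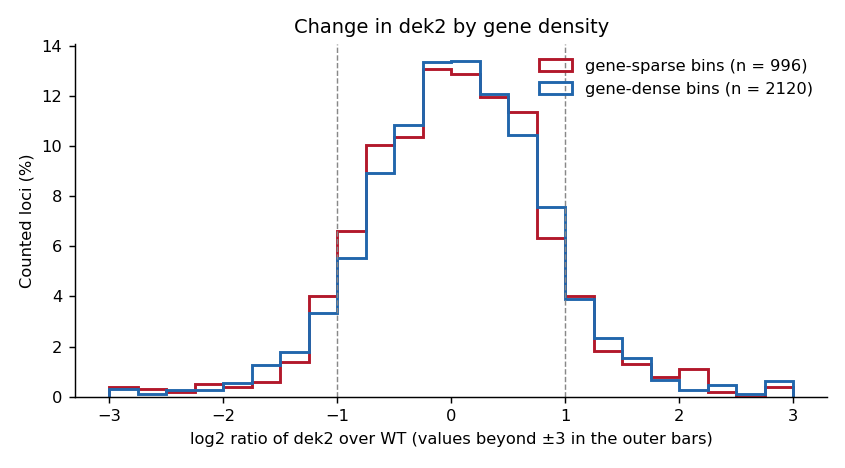
Distribution of the log2 ratio of dek2 over WT (x axis, scaled, pseudocount 1 FPKM) as percent of counted loci (y axis) for gene-sparse bins (red, n = 996) and gene-dense bins (blue, n = 2120). The outlines nearly coincide, and the dashed lines mark 2-fold, beyond which lie 9.64% (higher) and 7.83% (lower) of the gene-sparse loci.

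**Figure D4:**
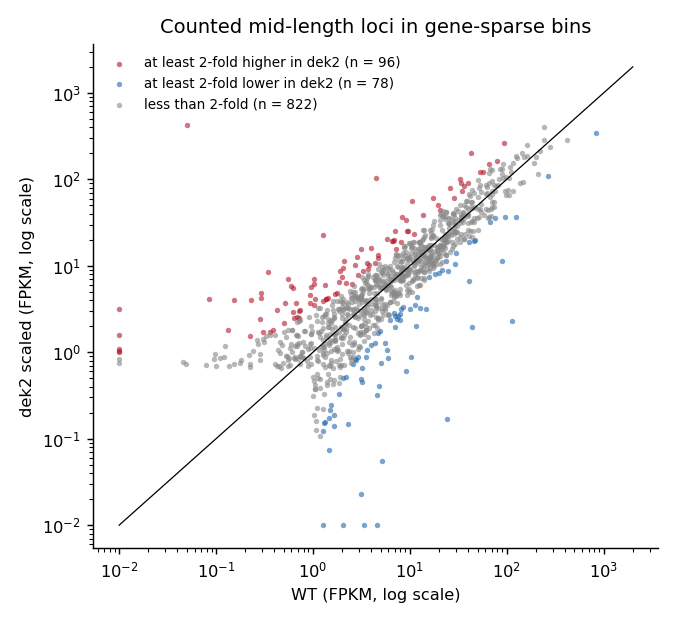
Level of each counted gene-sparse locus in WT (x axis) and scaled dek2 (y axis), in FPKM on log axes, with loci at least 2-fold higher in dek2 in red (n = 96), at least 2-fold lower in blue (n = 78) and the rest in grey (n = 822). Most loci follow the line of equal level, a single locus stands far above it, and loci with no value in a table are drawn at 0.01 FPKM.

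The highest ratio belonged to a locus on chromosome 10 from 46063646 to 46066005, which was the most abundant gene-sparse locus of dek2 and nearly silent in WT. It had 647 FPKM in dek2 and 0.0507 FPKM in WT, a log2 ratio of 8.68, which was 11.48 with a pseudocount of 0.1. It spanned 2359 bp, and the nearest listed coordinate was 57.4 kb away. The other gene-sparse locus of its bin, with 0.0746 FPKM in dek2 and 0.0412 FPKM in WT, was near silent in both. The number of fragments behind the WT value is unknown, so the size of the ratio is uncertain.

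The locus with the next ratio stood on chromosome 4 from 53106012 to 53110676, in a bin with several active loci. It had 157 FPKM in dek2 and 4.50 FPKM in WT, a log2 ratio of 4.26. Its bin, from 53 to 54 Mb, held 7 gene-sparse loci, whose sum was 578 FPKM in deposited dek2 and 198 FPKM in WT. The most abundant of these had 224 FPKM in dek2 and 66.3 FPKM in WT (log2 ratio 1.15), and the other 5 differed by less than 2-fold, with log2 ratios between -0.68 and 0.94. The large difference was therefore not shared by the other gene-sparse loci of the bin.

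The lowest ratio was found on chromosome 6 from 126063716 to 126069395, at a locus that was well expressed in WT. It had 3.48 FPKM in dek2 and 114 FPKM in WT, a log2 ratio of -5.12. The locus on chromosome 2 from 69266390 to 69268157 had 0.257 FPKM in dek2 and 24.0 FPKM in WT, a log2 ratio of -4.42. Both stood apart from other listed coordinates, the first by 53.3 kb and the other by 33.8 kb. A further locus of chromosome 2, with a span of 2.37 kb, had 2.96 FPKM in dek2 and 43.5 FPKM in WT (log2 ratio -3.91).

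The next ratios were smaller in both directions. The rule for describing loci covered those at 10 FPKM or more in a table with a value in both, 494 in all, of which 52 were at least 2-fold higher and 28 at least 2-fold lower. After the highest pair, the next 8 higher loci had log2 ratios between 1.99 and 3.38. They included a 15.0 kb locus of chromosome 8 with 34.2 FPKM in dek2 and 1.28 FPKM in WT, and a 1.56 kb locus of chromosome 1 with 12.8 FPKM in dek2 and 0.343 FPKM in WT. The most abundant of the 8 was a 4.69 kb locus of chromosome 10 with 302 FPKM in dek2 and 43.1 FPKM in WT (log2 ratio 2.19), which stood 2.02 kb from its neighbour.

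After the lowest pair, the next 8 lower loci had log2 ratios between -3.91 and -1.70. A 2.65 kb locus of chromosome 8 had 17.1 FPKM in dek2 and 89.2 FPKM in WT (log2 ratio -2.86). A 3.55 kb locus of chromosome 5 had 1.34 FPKM in dek2 and 10.2 FPKM in WT (log2 ratio -2.57). The most abundant of the 8, a 2.38 kb locus of chromosome 3, had 54.5 FPKM in dek2 and 125 FPKM in WT (log2 ratio -1.76). Of these 8 loci, 4 lay on chromosome 3, which held 226 of the 1735 gene-sparse loci and 127 of the 996 counted. The 8 were picked by their ratio, and their spread over chromosomes was not tested.

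**Figure D5:**
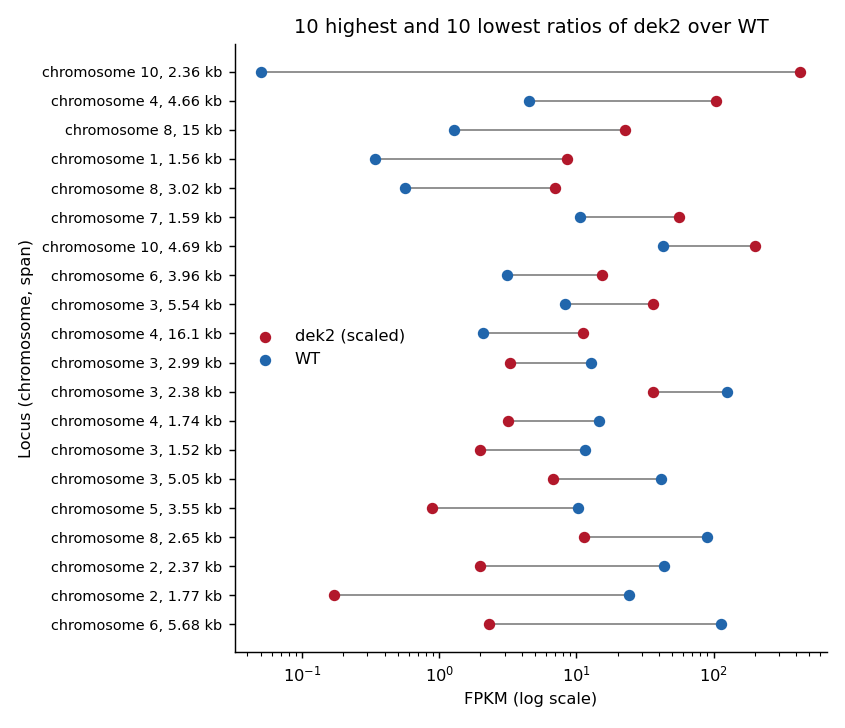
Level in scaled dek2 (red) and in WT (blue), in FPKM on a log axis, of the 10 highest and 10 lowest ratios among gene-sparse loci at 10 FPKM or more in a table with a value in both; each row is a locus, labelled by chromosome and span and ordered by ratio. The top locus, on chromosome 10, has 430 FPKM in scaled dek2 and 0.0507 FPKM in WT.

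The lower locus of 5.05 kb on chromosome 3 lay beside a higher one. It had 10.1 FPKM in dek2 and 41.2 FPKM in WT (log2 ratio -2.45). A locus of 1.68 kb that stood 0.643 kb away from it had 38.4 FPKM in dek2 and 9.56 FPKM in WT (log2 ratio 1.33). The pair was singled out after its values were seen. It was the only one in opposite directions among 23 pairs of counted gene-sparse neighbours within 1 kb, of which 0 were higher together and 0 lower together. Whether fragments were given to the other member of the pair in 1 of the tables was not tested.

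The most abundant gene-sparse loci were largely shared between the genotypes and mostly within 2-fold. Of the 10 most abundant of each table, 6 were shared. Those of dek2 had 304 to 647 FPKM in dek2 and made up 15.4% of its gene-sparse sum, with 2 at least 2-fold higher and 1 lower. Those of WT had 191 to 840 FPKM in WT and made up 17.5% of its gene-sparse sum, with 0 higher and 2 lower. Sets chosen by the level in a table tend to be lower in the other table, so both are given.

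The most abundant loci that differed by less than 2-fold were a 10.1 kb locus on chromosome 2 and a 3.61 kb locus on chromosome 4. The one on chromosome 4 ran from 81728937 to 81732551. Its level was 603 FPKM in dek2 and 242 FPKM in WT (log2 ratio 0.73). The locus on chromosome 2 from 138609878 to 138620022 had 430 FPKM in dek2 and 423 FPKM in WT (log2 ratio -0.56). On the deposited values without scaling, the chromosome 4 locus had a log2 ratio of 1.31 and would be counted as higher. The most abundant WT locus of the set, of 2.12 kb on chromosome 5, was lower, with 515 FPKM in dek2 and 840 FPKM in WT (log2 ratio -1.29).

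The balance of higher and lower loci differed between level classes. At a mean under 1 FPKM over both tables, 6 of 103 counted gene-sparse loci (5.83%) were higher in dek2 and 10 (9.71%) lower, although the median log2 ratio was 0.19. Gene-dense loci of that level were higher in 5 of 162 cases (3.09%) and lower in 17 (10.5%), and their median was 0.29. Counting used the deposited values, so dek2 passed at a lower scaled level than WT. Of these loci, 73 gene-sparse and 117 gene-dense ones reached 1 FPKM in deposited dek2, against 33 and 51 in WT. The balance and the medians of this class are therefore bound to the filter, and no direction is read from them. At a mean of 1 to 10 FPKM, 57 of 512 gene-sparse loci (11.1%) were higher in dek2 and 46 (8.98%) lower, with a median log2 ratio of 0.019. Gene-dense loci at 1 to 10 FPKM were higher in 98 of 1094 cases and lower in 98. At 10 to 100 FPKM, 28 of 349 (8.02%) were higher and 20 (5.73%) lower, and the median was -0.018. Gene-dense loci at 10 to 100 FPKM were higher in 96 of 784 cases (12.2%) and lower in 47 (5.99%). At 100 FPKM or more, 5 of 32 gene-sparse loci were higher and 2 lower, the median being 0.31. Among gene-dense loci of that level, 12 of 80 were higher and 7 lower, and the median was 0.24. The gene-sparse medians at 1 to 10 and at 10 to 100 FPKM lie near 0, and no direction is read from them.

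Longer gene-sparse loci changed less often. At spans of up to 3000 bp, 40 of 314 (12.7%) were higher in dek2 and 32 (10.2%) lower. Above that and up to 6000 bp, 37 of 376 (9.84%) were higher and 29 (7.71%) lower. Up to 10000 bp 11 of 171 were higher and 12 lower, and over 10000 bp 8 of 135 were higher and 5 lower. The gene-dense loci showed a like order from 13.0% to 5.65% higher over the first 3 classes and 7.59% in the longest. Detection grew with span as given above, and its part in this order was not tested.

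Among the gene-sparse loci, chromosomes differed more in the share of lower loci than in that of higher loci. Loci higher in dek2 made up from 8.02% (chromosome 4) to 14.1% (chromosome 1) of the counted gene-sparse loci. Loci lower in dek2 made up from 3.31% (chromosome 7, 4 of 121 loci) to 15.7% (chromosome 3). On chromosome 3, 20 of 127 loci were lower and 12 higher, with a median log2 ratio of -0.13 (0.33 on the values without scaling). In the other bins of chromosome 3, 8.49% of 1484 mid-length loci were lower and 10.8% higher, with a median of 0.047. On chromosome 1, 10 of 71 loci were higher and 3 lower, beside 11.6% higher and 8.52% lower in its other bins. Over the other bins of all chromosomes, with many more loci each, the order of the ranges was the other way. Higher mid-length loci made up 9.33% (chromosome 10) to 12.3% (chromosome 5) there, and lower ones 7.24% (chromosome 8) to 9.09% (chromosome 9). No test of these differences is possible with 1 table per genotype.

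Gene-sparse bins that neighbour each other formed stretches, and the longest held loci of both directions. There were 194 stretches, of which 109 were a single bin and 16 had 5 bins or more. Those 16 held 502 of the loci (28.9%). The longest ran from 99 to 123 Mb on chromosome 5 and held 76 loci, of which 39 were counted, 5 were higher in dek2 and 6 lower, with a median log2 ratio of -0.06. Among the 14 stretches of 5 bins or more with at least 10 counted loci, the median lay between -0.42 and 0.24.

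The 16 long stretches differed widely in activity. The most silent, from 51 to 56 Mb on chromosome 9, held 19 loci. Of these, 10.5% were at 1 FPKM or more in scaled dek2 and 10.5% in WT. Their sum was 11.4 FPKM in deposited dek2 and 5.96 FPKM in WT. The stretch from 65 to 71 Mb on chromosome 2 held 28 loci, of which 60.7% reached 1 FPKM in scaled dek2 and 67.9% in WT. Their sum was 535 FPKM in deposited dek2 and 397 FPKM in WT, but their median log2 ratio after scaling was -0.24 over 20 counted loci. Sums of deposited dek2 still hold the shift that scaling removes, so no direction is read from them.

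Most bins with several counted loci held none or 1 that changed. Of 288 gene-sparse bins with at least 2 counted loci, 164 held no locus that differed 2-fold, 98 held 1 and 26 held more. Of these 26, 6 held higher loci only, 6 held lower loci only and 14 held both. There were 2 bins with 3 loci in the same direction, both higher. The median range of log2 ratios within a bin was 1.11. Over all counted gene-sparse loci, 9.64% were higher and 7.83% lower. Whether the counts per bin depart from these shares was not tested, and no such counts were made for gene-dense bins. They are therefore not read as a trait of gene-sparse bins.

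In the bin from 139 to 140 Mb on chromosome 1, the 4 counted loci had log2 ratios between 0.85 and 1.59. The most abundant of them had 120 FPKM in dek2 and 25.8 FPKM in WT. In the bin from 85 to 86 Mb on chromosome 2, 3 of the 6 counted loci were higher, and the other 3 had log2 ratios between -0.72 and 0.04. The highest ratio there, 1.51, belonged to a locus with 4.61 FPKM in dek2 and 0.427 FPKM in WT.

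Detection differed little between isolated loci within the gene-sparse bins and loci with a near neighbour. Of 348 loci that stood 100 kb or more from the nearest listed coordinate, 48.9% were at 1 FPKM or more in scaled dek2 and 48.3% were in WT. Of 545 loci with a neighbour within 10 kb, 52.3% reached it in scaled dek2 and 50.5% in WT. The isolated loci had a longer median span (3816 bp against 3381 bp), and its part was not tested. Among the counted isolated loci, 17 of 191 (8.90%) were higher in dek2 and 7 (3.66%) lower. Among the counted loci with a near neighbour, 32 of 313 (10.2%) were higher and 25 (7.99%) lower. The locus farthest from any other, 547 kb away on chromosome 3, had 0.0384 FPKM in dek2 and no value in WT.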

How the data were processed

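RNA of endosperm was sequenced from 1 dek2 and 1 wild-type sample. Trizol extraction, DNase I treatment and standard Illumina library preparation are stated per the labels' protocols. Bowtie 0.12.2 is named in the submitters' processing notes. The sources used here name no FPKM program, build or annotation. The authors deposited FPKM per coordinate, and both tables list the same 45157 rows in the same order. The number of fragments per table is unknown, since FPKM removes it. The ratio of dek2 to WT had a main peak among 2032 mid-length rows at 0.3 FPKM or less in both tables. If the rows of that peak held equal fragment numbers in both, the mapped total of dek2 would be 1.07 times that of WT. Whether they did was not tested.

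Rows were binned by start, dek2 was scaled by the median ratio, and log2 ratios were computed with Python 3.11.15, numpy 2.4.6 and pandas 2.3.3 and tested on simulated data. Figures were drawn with matplotlib 3.10.9. Positions are printed for at most 2 loci in each direction, those with the highest and lowest ratios at 10 FPKM or more with a value in both, and for the 2 most abundant loci that differed by less than 2-fold. The next 8 in each direction, the 10 most abundant of each table and the highest loci without a value are given without position. The members and rules were chosen with earlier results of these data known. Coordinates are as deposited. The reference gene table at hand is of another assembly (0 locus starts equalled a gene start), so no gene name was assigned. Alternatives were other scalings, pseudocounts, filters, fold thresholds and bin limits.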

Additional observations from a re-analysis of the deposited data

How the results depend on the processing

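The detection shares and the near-equal change in gene-sparse and gene-dense bins were recomputed under other settings. On the deposited values 271 gene-sparse loci were higher in dek2 and 31 lower (604 and 85 gene-dense), with medians of 0.52 and 0.55, since the shift of 0.59 is then left in. With a pseudocount of 0.1 the numbers were 156 and 138 (368 and 262 gene-dense), with a 3-fold threshold 32 and 21 (62 and 48), and with a filter of 5 FPKM 45 gene-sparse and 109 gene-dense loci were lower. The gene-dense median was 0.022 with sums set equal without the 100 most abundant rows and 0.021 with no filter. Bins with 5 or fewer coordinates gave 13 higher and 8 lower loci, a reversed median of -0.015 over 118 loci, 43.4% at 1 FPKM or more in dek2 and 47.1% in WT, and no value for 11.3% in dek2 and 16.3% in WT. Bins with 15 or fewer gave 296 higher and 225 lower loci, 53.3% and 52.8% at 1 FPKM or more in dek2 and WT, and no WT value for 11.9%. Bins with 30 or more gave 571 higher and 429 lower gene-dense loci. Without scaling, 54.4% of the gene-sparse loci reached 1 FPKM in dek2. Other bin limits and the filter change how many loci enter, while the scaling, the pseudocount and the threshold act on the same loci. The other 49 alternatives for these results stayed within 1.5 times (counts) or within the 95% interval of the share or median. Alternatives for the 6 loci with a position and for 18 medians by chromosome, level and span were added after the data were seen: the direction of the 4 loci counted as higher or lower held in each, and 4 medians changed sign without scaling and 4 with sums set equal. No paired analysis was possible because each genotype has 1 sample, and leaving out a replicate was not possible for the same reason. Depth limits what is said of loci near 1 FPKM and of those without a value.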
